A study of Caenorhabditis elegans with 24 samples.

Results

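The cuticle collagens of *Caenorhabditis elegans* were followed through 24 libraries of whole-worm RNA by taking every gene whose name is *col-* and a number, which gave 157 of the 20191 genes in the table of expression values. No value was used to choose them. The genes were measured in *abl-1* KO quercetin, *abl-1* KO untreated, wt quercetin, wt lutein and wt untreated animals, each compound at 100 µM, with 5 libraries per group and 4 for lutein. The study asked which genes respond to these plant compounds, quercetin being a flavonoid and lutein a carotenoid, and which respond to loss of the Abl tyrosine kinase. The wt strain NV48 and the *abl-1* KO strain NV50 (*ok171*) are each a single strain from a cross of XR1 with GRU102, so strain and *abl-1* genotype cannot be told apart. Every group was kept at 20 °C on HT115 bacteria with the empty vector pL4440, the compounds were given from the egg onwards, untreated animals received the solvent (0.5% DMSO with 0.005% Tween 80), and pools of whole worms were collected on day 3. Levels are RPKM, reads scaled to exon length and to all mapped reads, which correct for gene length and depth and allow genes to be compared with each other.

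The worm cuticle is a collagen exoskeleton that the epidermis secretes anew at every molt. Cuticle collagens are short chains of Gly-X-Y repeats that are hydroxylated on proline, joined into trimers by disulfide bonds, cut by proteases, and cross-linked through tyrosines once outside the cell. Different collagen genes are used at different stages and are switched on in waves within each molting cycle, while the adult, which does not molt, keeps expressing its own set. Members of the family have been tied to body shape, to the barrier against stress and to lifespan.

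In these animals the collagens took 2.70% to 4.08% of all RPKM in a library. The depth behind each value is not in the table: only 51.5% to 61.1% of low values in a library were whole multiples of a common step (tolerance 0.1 steps), so read counts were not recovered. The targeted gene *abl-1* had 1.71 to 2.14 RPKM in both *abl-1* KO groups and 6.85 to 7.77 RPKM in the wt groups. Yolk genes (*vit-1* to *vit-6*), made by the adult intestine, summed to 15308 to 17337 RPKM in all libraries, whereas the 11 molting markers summed to only 15.6 to 31.4 RPKM. Sperm genes (31 *msp* genes) differed widely between libraries, from 4.54 to 620 RPKM. In such bulk samples, fewer cells of a type and less RNA per cell cannot be told apart.

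A few genes carried nearly all collagen RNA. The 21 genes with a mean of at least 300 RPKM held 96.9% of the family's RPKM, 14 genes between 10 and 300 RPKM held 2.37%, 51 genes between 1 and 10 RPKM held 0.610%, and 71 genes under 1 RPKM held 0.0660%. These limits were set after the levels were seen. The highest was *col-122* with a mean of 2445 RPKM, 10.1% of the family, and its values were 2732, 2494, 2538, 2254 and 2452 RPKM in *abl-1* KO quercetin, 2819, 2542, 2511, 2344 and 2213 RPKM in *abl-1* KO untreated, 2979, 2406, 2337, 2361 and 2094 RPKM in wt quercetin, 2633, 2427, 2317 and 2149 RPKM in wt lutein, and 2674, 2522, 2326, 2173 and 2386 RPKM in wt untreated. The 5 groups overlapped, and the whole range over 24 libraries spanned 1.42-fold. It was followed by *col-119* (mean 2242 RPKM), *col-181* (1875), *col-20* (1834), *col-140* (1771), *col-8* (1359.6), *col-106* (1264), *col-178* (1223), *col-101* (1194), *col-124* (1157), *col-184* (1137) and *col-93* (1037). Every one of the 157 genes had a value above 0 in at least 1 library.

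**Figure D1:**
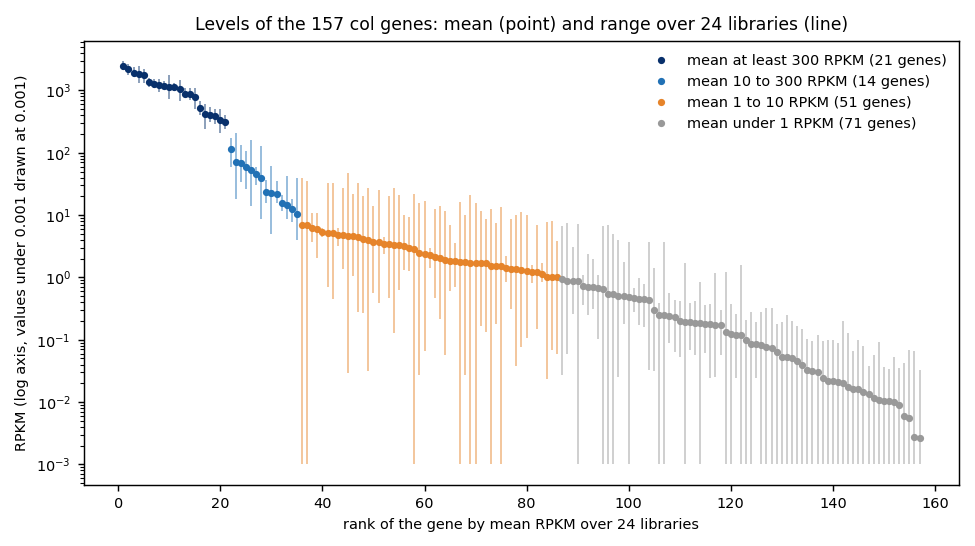
Level of each of the 157 *col* genes, ranked by mean RPKM (x axis) on a log axis of RPKM (y axis); points are means over 24 libraries and lines run from the lowest to the highest library. The 21 genes of at least 300 RPKM have short lines (highest over lowest 1.34 to 2.54), whereas the 51 genes of 1 to 10 RPKM have long ones (median 46.3 among those above 0 in every library).

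Abundant and scarce collagens differed in how much they varied. The spread was taken as the SD of log2(RPKM + 0.5) over the 24 libraries. Among genes of at least 1 RPKM it was smallest for *col-143* (0.11, range 804 to 1079 RPKM), *col-101* (0.11), *col-184* (0.12), *col-76* (0.12), *col-181* (0.12) and *col-122* (0.12). It was largest for *col-133* (1.78, range 0.0314 to 27.4 RPKM), *col-161* (1.72), *col-73* (1.69), *col-117* (1.60), *col-138* (1.46) and *col-88* (1.45). *col-76* had this small spread at a mean of only 5.36 RPKM.

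The family was not spread evenly over the genome (assembly WBcel235). Chromosome IV held 41 members and 36.3% of the family's RPKM, while chromosome I held 21 members, none of them among the 21 abundant ones, and 0.0579% of the RPKM. No annotated position was found for *col-182* (mean 0.133 RPKM). In 26 pairs, 2 *col* genes lay side by side with no other protein-coding gene starting between them, and in 11 of these the levels differed at least 10-fold. On chromosome II, *col-20* (4869670 to 4870791, minus strand, mean 1834 RPKM) lay between *col-17* (4866436 to 4867576, 1.70 RPKM), a larval collagen, and *col-73* (4872098 to 4873129, 4.62 RPKM). On chromosome X, *col-184* (13469455 to 13470409, 1137 RPKM) was the neighbour of the dauer collagen *col-183* (13466643 to 13467764), which had a median of 0 and a mean of 0.0217 RPKM. Other pairs moved together across libraries: Pearson's r of log2(RPKM + 0.5) over the 24 libraries was 0.97 for *col-126* and *col-127*, and 0.92 for *col-12* and *col-13*. It was at least 0.8 in 10 of the 19 pairs in which both members were tested, and under 0 in 3. Such values were not limited to neighbours. Of the 103 other tested members at any position, 38 reached 0.8 with *col-38*, 24 with *col-19*, 16 with *col-129* and 1 with *col-165*. *col-159* and *col-160* overlap on the same strand (13198231 to 13202177 and 13200982 to 13202189, chromosome V), and reads in the shared part may be counted for either gene. How reads that match near-identical members such as *col-12* and *col-13* were assigned is not given in the sources used here, so their separate values are uncertain.

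Of the 157 genes, 104 reached 0.5 RPKM in at least 4 libraries and were tested; the other 53 did not. Because a scarce gene can pass that limit through a few high libraries, counts and medians over the 104 are given as descriptions. Most variance among the 104 was shared: the first principal component held 75.5% of it, the second 13.9% and the third 3.60%.

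**Figure D2:**
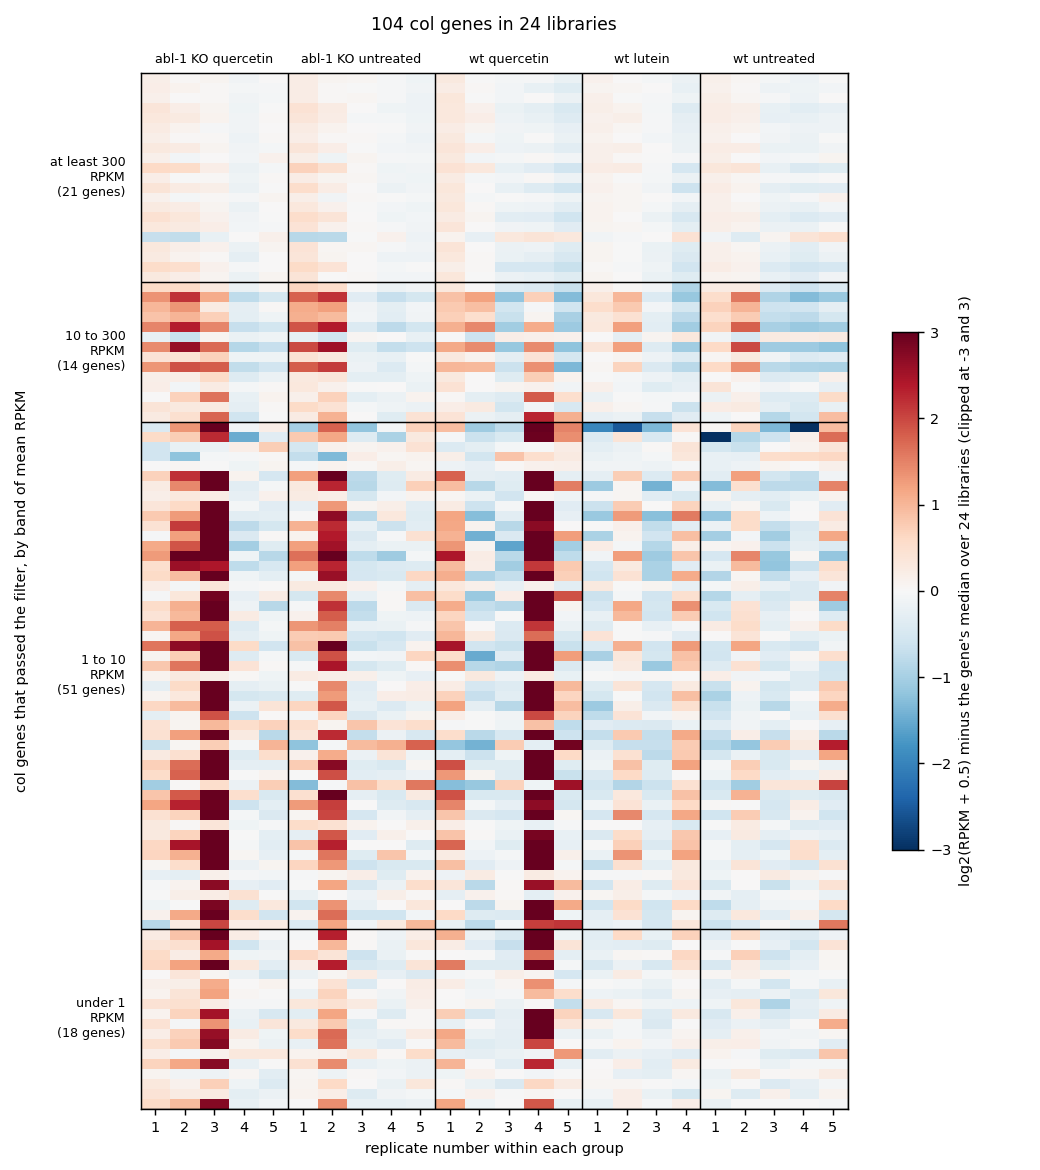
Log2(RPKM + 0.5) of the 104 tested *col* genes (rows, from the most to the least abundant within 4 bands of mean RPKM) in 24 libraries (columns, by group and replicate number), as the difference from the gene's own median over the libraries, with red above and blue below it. The scarce genes are dark red in *abl-1* KO quercetin replicate 3, wt quercetin replicate 4 and, less so, *abl-1* KO untreated replicate 2, while the abundant genes differ little between libraries.

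The scarce collagens were high together in 3 libraries. The 51 genes of 1 to 10 RPKM summed to 98.3, 182.9, 665, 68.9 and 80.8 RPKM in *abl-1* KO quercetin, 101, 273, 67.7, 74.3 and 96.6 RPKM in *abl-1* KO untreated, 138, 58.1, 67.1, 712 and 134 RPKM in wt quercetin, 59.1, 95.6, 55.4 and 109.9 RPKM in wt lutein, and 56.6, 89.5, 62.4, 71.3 and 125.8 RPKM in wt untreated. *abl-1* KO quercetin replicate 3 and wt quercetin replicate 4 stood far above the rest, and *abl-1* KO untreated replicate 2 came next. Many of the tested members had their highest value in one of the first 2 of these: 24 (23.1%) in *abl-1* KO quercetin replicate 3, against 2.96% of all tested genes, and 32 (30.8%) in wt quercetin replicate 4, against 2.93% of all tested genes. Of the 51 genes, 33 reached at least 10 times their median in some library. A gene can enter this band through such a peak, since the band rests on the mean over the 24 libraries. For example, *col-49* had a mean of 1.51 RPKM and a median of 0.257 RPKM. Sums, counts and medians of this band are therefore given as descriptions.

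Some of these libraries also stood apart in other gene groups. The 11 molting markers, genes of cuticle renewal such as *mlt-10* and *nas-37*, summed to 31.4 RPKM in *abl-1* KO quercetin replicate 3 and 30.0 RPKM in wt quercetin replicate 4, and to at most 26.1 RPKM elsewhere, with 21.6 RPKM in *abl-1* KO untreated replicate 2. The *msp* genes summed to 372 RPKM in *abl-1* KO quercetin replicate 3, 337 RPKM in wt quercetin replicate 4 and 620 RPKM in *abl-1* KO untreated replicate 2. They also summed to 442 RPKM in *abl-1* KO quercetin replicate 2, where the 51 scarce collagens had 182.9 RPKM, but *abl-1* KO quercetin replicate 5, with 272 RPKM of *msp*, had only 80.8 RPKM of the 51 scarce collagens. Yolk RNA in the 3 libraries (16172, 16331 and 15308 RPKM) was not above that of the others. The part of these groups in the collagen levels was not tested.

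**Figure D3:**
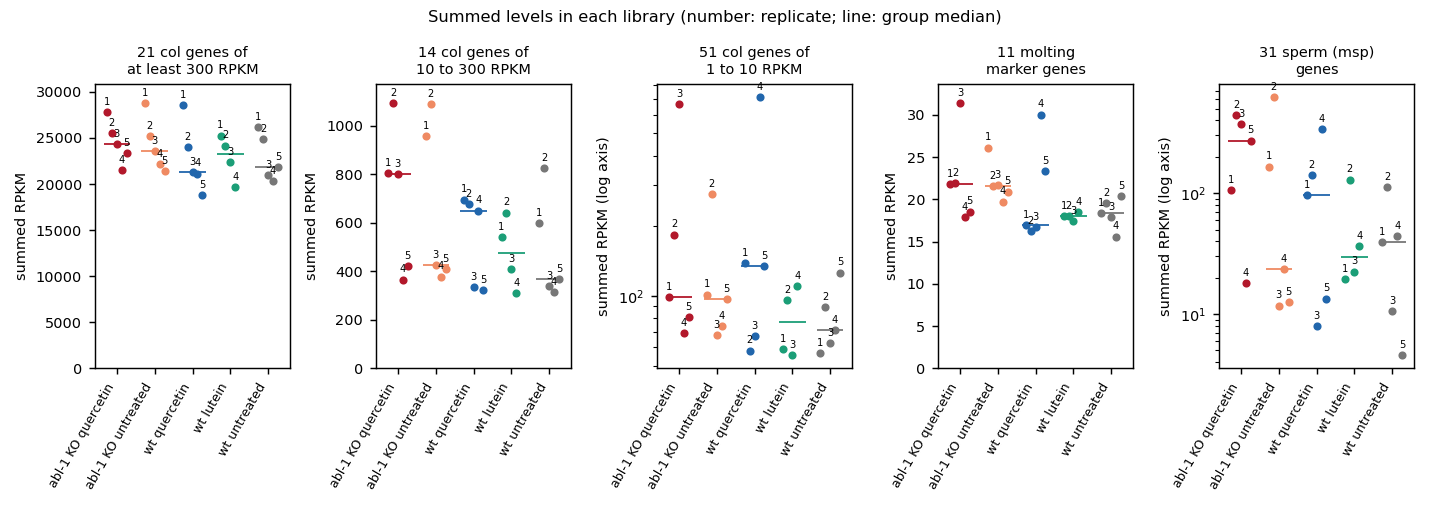
Summed RPKM in each library (points, labelled with the replicate number; lines are group medians) for 3 bands of *col* genes, 11 molting markers and 31 *msp* genes, by group; the panels of the 51 scarce collagens and of the *msp* genes have log axes. *abl-1* KO quercetin replicate 3 (665 RPKM) and wt quercetin replicate 4 (712 RPKM) lie above all others in the 51 scarce collagens and in the molting markers, but not in the 21 abundant collagens.

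Collagens of the last larval stage were among those that peaked in these libraries. *col-38*, which like *col-49* and *col-63* is expressed at the L4 stage under the control of the zinc finger factor LIN-29, had 3.28, 3.98, 27.4, 2.33 and 1.83 RPKM in *abl-1* KO quercetin, 1.99, 6.74, 2.63, 2.86 and 1.88 RPKM in *abl-1* KO untreated, 2.98, 1.43, 2.36, 26.4 and 1.85 RPKM in wt quercetin, 1.38, 4.52, 2.49 and 4.23 RPKM in wt lutein, and 2.03, 2.61, 1.67, 2.43 and 1.85 RPKM in wt untreated. A single quercetin library of each strain was high, and the remaining 4 of each group had at most 3.98 RPKM. *col-49* had 12.8 RPKM in *abl-1* KO quercetin replicate 3 and 13.6 RPKM in wt quercetin replicate 4 against a median of 0.257 RPKM over the 24 libraries, and *col-63* had 10.3 and 11.3 RPKM there against a median of 0.241 RPKM. The larval collagen *col-17* had 9.14 RPKM in *abl-1* KO quercetin replicate 3 and 21.1 RPKM in wt quercetin replicate 4, and at most 1.45 RPKM elsewhere. Over the 24 libraries, *col-63* and *col-49* were the members most like *col-38* (Pearson's r of log2(RPKM + 0.5) 0.97 in both cases), and 19 of the other 103 tested members reached 0.9. All these values share their libraries, and the 2 highest libraries weigh most in r.

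Collagens that are made at every molt or that have been linked to lifespan showed the same peaks. *col-12* and *col-13*, a near-identical pair, reached 33.1 and 20.6 RPKM in *abl-1* KO quercetin replicate 3, and 24.99 and 18.3 RPKM in wt quercetin replicate 4, against medians of 1.58 and 1.79 RPKM. *col-120*, which with *col-10* and *col-13* has been reported to extend lifespan when overexpressed, had 6.74 RPKM in *abl-1* KO quercetin replicate 3, 3.16 RPKM in *abl-1* KO untreated replicate 2 and 6.01 RPKM in wt quercetin replicate 4, against a median of 0.222 RPKM. *col-10* reached 27.2 RPKM in *abl-1* KO quercetin replicate 3 and 39.5 RPKM in wt quercetin replicate 4, with a median of 7.72 RPKM. All 3 genes were thus highest in the same pair of libraries, and the groups overlapped.

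Not every scarce collagen had a large peak there. The dauer collagens *col-2*, *col-40* and *col-183* did not pass the limit for testing, and their highest values were 0.552, 0.297 and 0.0980 RPKM. *col-34*, a collagen of the male tail rays, had 2.41 to 4.46 RPKM. The highest values of *col-34* (*abl-1* KO quercetin replicate 3) and *col-40* (wt quercetin replicate 4) lay in the same libraries, at 1.33 and 1.80 times their medians. *col-165* and *col-74* peaked elsewhere: *col-165* had 2.35, 4.29, 9.91 and 6.63 RPKM in the libraries numbered 5 of *abl-1* KO quercetin, *abl-1* KO untreated, wt quercetin and wt untreated, which were the highest of their groups, and *col-74* was the member most like it (r = 0.99 over 24 libraries, no other member above 0.76).

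A middle set followed the replicate number. *col-129* had 116, 208, 98.98, 26.8 and 31.4 RPKM in *abl-1* KO quercetin, 157, 207, 35.7, 28.2 and 31.7 RPKM in *abl-1* KO untreated, 84.6, 105, 19.9, 75.2 and 18.3 RPKM in wt quercetin, 58.3, 91.5, 34.5 and 20.4 RPKM in wt lutein, and 66.5, 137, 24.4, 18.1 and 20.7 RPKM in wt untreated. In every group the libraries numbered 1 and 2 were the highest. Of the others, *abl-1* KO quercetin replicate 3 and wt quercetin replicate 4 came closest to them. *col-139* (r = 1.00 with *col-129* over 24 libraries), *col-81* (0.99), *col-92* (0.97), *col-159* (0.97) and *col-142* (0.95), the last a target of the BMP-like ligand DBL-1, varied in the same way. *col-92* reached 60.7 RPKM in *abl-1* KO untreated replicate 2 and was at 5.06 RPKM in wt quercetin replicate 5.

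The abundant collagens had the same tilt, only smaller. The library numbered 1 had the highest family total in each of the 5 groups, with 28690 RPKM in *abl-1* KO quercetin, 29859 RPKM in *abl-1* KO untreated, 29403 RPKM in wt quercetin, 25868 RPKM in wt lutein and 26876 RPKM in wt untreated. Of the 21 abundant genes, 19 or 20 per group had a higher mean log2 value in the libraries numbered 1 and 2 than in the rest of their group, by a median of 0.25 in *abl-1* KO quercetin, 0.27 in *abl-1* KO untreated, 0.39 in wt quercetin, 0.24 in wt lutein and 0.28 in wt untreated. *col-95* ran the other way, with differences of -0.70, -0.82, -0.42, -0.29 and -0.57 in that order of groups. The labels do not say what a replicate number stands for, and this split was chosen after the values were seen.

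With quercetin in wt animals, abundant collagens kept close to their untreated level and scarce ones differed between libraries. No *col* gene was called by limma at a Benjamini-Hochberg adjusted p of at most 0.05 (background: 0 of 12771 genes called, 0%). Of the 104 members 1, *col-111*, had an unadjusted p of at most 0.05, against 173 of the 12771 tested genes. The 21 abundant genes differed by a median log2 fold change of -0.01, with a range of -0.06 to 0.08. The 51 scarce ones had a median of 0.79, with 47 above 0, but without wt quercetin replicate 4 this median was 0.15. Over all 104 members the median was 0.42 (81 above 0, 77.9%, against 54.1% of all tested genes above 0), and 0.08 without that library.

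Among members with a mean of at least 1 RPKM, here and in the comparisons below, the 2 highest and 2 lowest fold changes are given. *col-133* averaged 6.03 ± 9.80 RPKM in wt quercetin and 0.780 ± 1.15 RPKM in wt untreated (SD, n = 5 each), and its log2 fold change was 1.34 ± 1.06 (SE, limma adjusted p = 1.00), or 0.53 without wt quercetin replicate 4. *col-117* had 7.25, 1.42, 1.86, 39.1 and 10.9 RPKM in wt quercetin and 3.74, 5.92, 1.083, 0 and 7.24 RPKM in wt untreated, a log2 fold change of 1.32 ± 0.89 (adjusted p = 1.00). Both groups overlapped for both genes. At the other end lay *col-165* (-0.12) and *col-74* (-0.08), whose sign turned when 1 library was left out.

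In *abl-1* KO animals, too, no *col* gene was called with quercetin (limma, background 0% of 12771 genes). None had an unadjusted p of at most 0.05, against 233 of all tested genes. Among the 21 abundant genes log2 fold changes ran from -0.01 to 0.05, with a median of 0.03. The scarce 51 had a median of 0.42, which was -0.04 without *abl-1* KO quercetin replicate 3. Over all 104 the median was 0.20 (89 above 0, 85.6%, against 47.1% of all tested genes), and 0.01 without that library. *col-161* averaged 5.85 ± 9.23 RPKM in *abl-1* KO quercetin and 1.91 ± 3.52 RPKM in *abl-1* KO untreated (SD, n = 5 each), the largest log2 fold change here (1.16 ± 1.02, SE, limma adjusted p = 1.00), followed by *col-162* (1.02 ± 0.78). Without *abl-1* KO quercetin replicate 3, which had 22.1 RPKM of *col-161* and 16.6 RPKM of *col-162*, they were 0.41 and 0.40. The lowest were *col-74* (-0.32) and *col-165* (-0.29).

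The difference between the quercetin effects in the 2 strains was tested by the interaction term of the same limma fit, which called 0 of the 104 members (background 0%). The median of the term was -0.11, and it ran from -0.35 without *abl-1* KO quercetin replicate 3 to 0.06 without *abl-1* KO untreated replicate 2. It was 0.17, with 77 of 99 members above 0 against 36 of 104 with all libraries, without both wt quercetin replicate 4 and *abl-1* KO untreated replicate 2. Of all 12771 tested genes, 5857 were above 0 in the fit with all libraries. In that fit no member had an unadjusted p of at most 0.05, against 203 of all tested genes. The lowest values were -1.05 ± 1.10 for *col-3* and -0.78 ± 0.95 for *col-107*, and the highest were 0.20 ± 1.10 for *col-162* and 0.17 ± 0.21 for *col-150* (log2 ± SE).

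With lutein the abundant collagens also stayed close to their untreated level. No *col* gene was called in wt lutein against wt untreated (limma, background 0% of 12771 genes). None had an unadjusted p of at most 0.05, against 209 of all tested genes. The median log2 fold change of the 104 was 0.02, with 59 above 0 (56.7%, against 57.1% of all tested genes). With the replicate block, in which the libraries numbered 5 have no lutein partner, the median was -0.03, with 45 above 0. The abundant genes lay between -0.06 and 0.06. *col-138* (0.67 ± 0.95) and *col-63* (0.60 ± 0.76) were highest and *col-117* (-0.82 ± 0.94) and *col-74* (-0.62 ± 0.69) lowest (log2 ± SE). With the block *col-74*, which is high in wt untreated replicate 5, was at -0.24 and higher in wt lutein in 3 of 4 pairs. Between the compounds, wt quercetin against wt lutein at the same 100 µM, again none was called (background 0%), with 2 members at an unadjusted p of at most 0.05, *col-117* and *col-10*. *col-117* averaged 12.1 ± 15.6 RPKM in wt quercetin (SD, n = 5) and 1.68 ± 2.18 RPKM in wt lutein (SD, n = 4), a log2 fold change of 2.13 ± 0.94 (SE, limma adjusted p = 1.00), and was 1.504 without wt quercetin replicate 4. *col-167* came next (1.63 ± 0.84), and *col-179* (-0.12 ± 0.20) and *col-158* (-0.10 ± 0.24) were lowest. With the block *col-179* was at -0.05 and higher in wt quercetin in 3 of 4 pairs. The median of the 104 was 0.38, and 0.03 without that library. Both comparisons of wt quercetin share its 5 libraries.

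**Figure D4:**
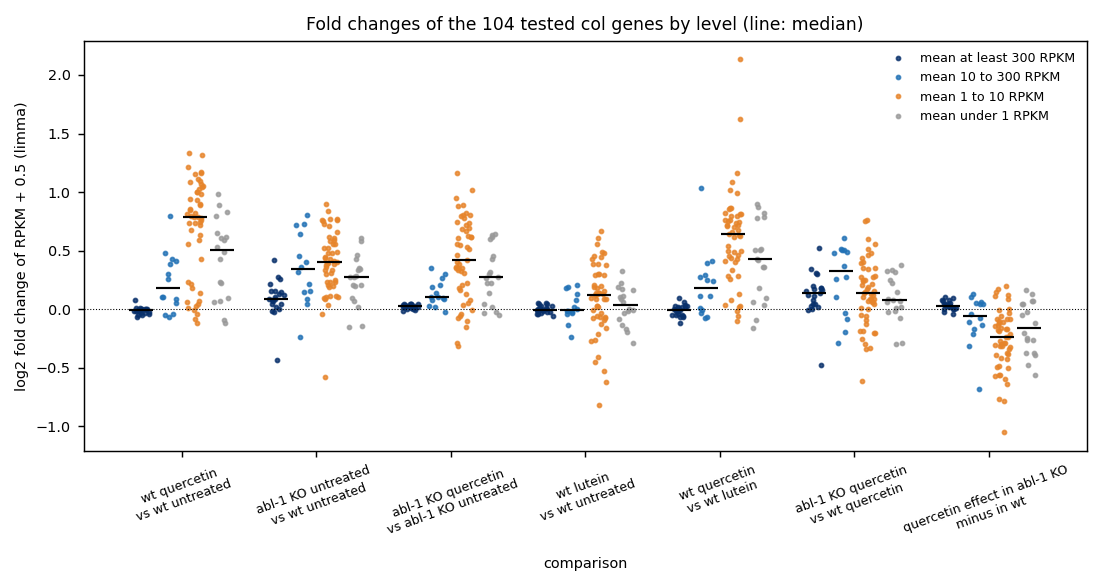
Log2 fold changes (y axis, limma on RPKM + 0.5) of the 104 tested *col* genes in the 7 comparisons (x axis), split into 4 bands of mean RPKM; black lines are medians. The abundant genes stay between -0.06 and 0.08 in the comparison of wt quercetin with wt untreated, where the genes of 1 to 10 RPKM have a median of 0.79.

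Between the strains, 5 collagens, among them the adult collagen *col-19*, were higher in *abl-1* KO animals and 3 lower once libraries were compared within replicate numbers. Without regard to the numbers, no *col* gene was called in *abl-1* KO untreated against wt untreated (limma, background 61 of 12771 genes, 0.478%). Of the 104 members 4, *col-99*, *col-110*, *col-141* and *col-179*, had an unadjusted p of at most 0.05, against 1412 of the 12771 tested genes. The median log2 fold change of the 104 was 0.28 (95 above 0, 91.3%, against 62.2% of all tested genes), and 0.10 without *abl-1* KO untreated replicate 2. In this comparison the libraries with the same number deviated together from their group means (correlations over the tested genes of 0.14 to 0.58 in the 5 pairs), and with the replicate number as a block in the fit, 8 of the 104 members (7.69%) were called, 5 higher and 3 lower, against a background of 466 of 12771 genes (3.65%). The count was 4 without *abl-1* KO untreated replicate 1, 3 without replicate 2 and 5 without replicate 4 of that group, and 4, 4 and 5 without wt untreated replicates 3, 4 and 5. The 5 called higher were so in each of the 5 same-numbered pairs and the 3 called lower likewise, which describes genes that were chosen within these pairs. Of the other 96 tested members, 19 were higher and 0 lower in every pair, as were 12.6% and 4.60% of all tested genes.

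**Figure D5:**
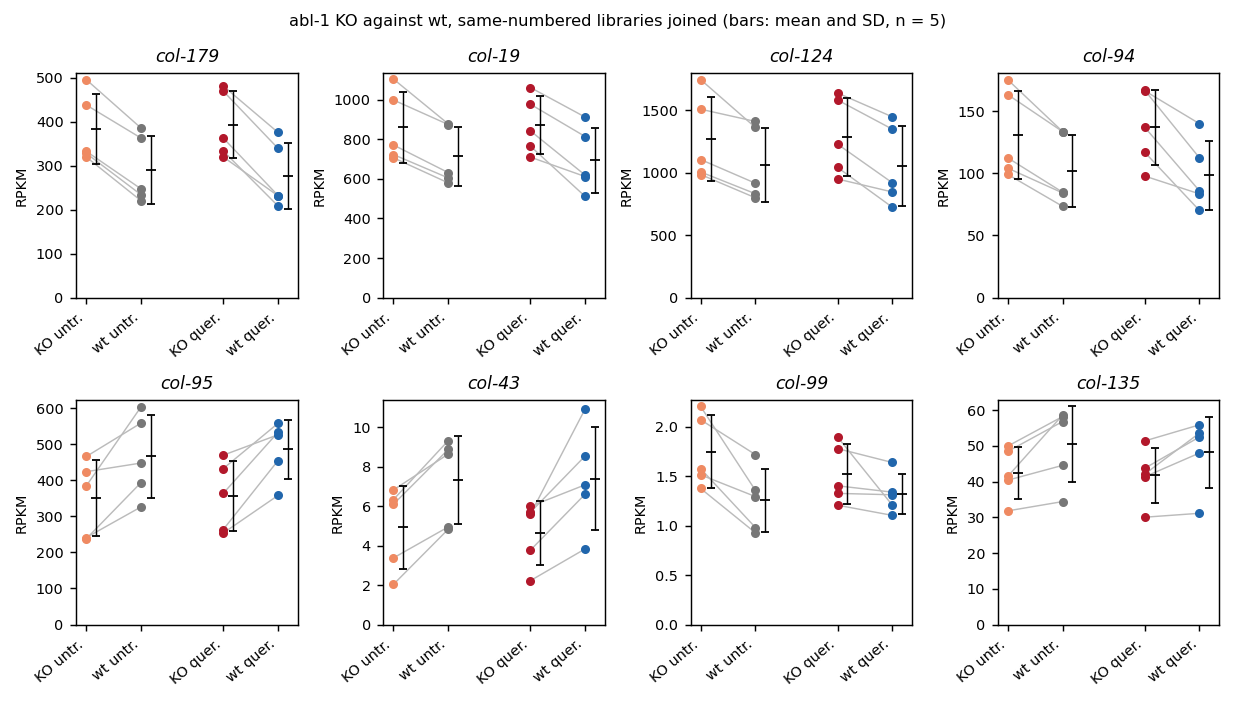
RPKM of the 8 collagens called with the replicate block (y axis) in *abl-1* KO untreated and wt untreated, and in *abl-1* KO quercetin and wt quercetin (x axis); points are libraries, lines join libraries with the same replicate number, and bars give mean and SD (n = 5). The 5 genes called higher fall along every line from *abl-1* KO to wt, the 3 called lower climb along every line, and the groups overlap in RPKM.

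*col-179*, a cuticle collagen on chromosome X (11201465 to 11202485, plus strand) next to *col-178*, gave the clearest difference. It had 496, 438, 333, 319.9 and 328 RPKM in *abl-1* KO untreated (replicates 1 to 5) and 386, 363, 247, 220.4 and 234 RPKM in wt untreated. The ranges overlapped, since wt replicates 1 and 2 exceeded *abl-1* KO replicates 3 to 5. The log2 fold change was 0.42 ± 0.06 (SE) with the block (limma adjusted p = 0.000364) and had an SE of 0.19 without it (adjusted p = 0.432, and p = 0.0794 in the exact two-sided permutation test of the means, whose smallest possible p is 0.00794).

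*col-19*, the marker collagen of the adult cuticle that LIN-29 switches on, had 1104, 998, 771, 706 and 723 RPKM in *abl-1* KO untreated and 878, 875, 632, 579.6 and 605 RPKM in wt untreated. Each *abl-1* KO library was above the wt library of its number, and the ranges overlapped. The log2 fold change was 0.27 ± 0.05 (SE) with the block (limma adjusted p = 0.00312) and the adjusted p was 0.566 without it. *col-124* (chromosome IV, 10216451 to 10217617) had 1747, 1509.8, 1106, 986 and 1007 RPKM in *abl-1* KO untreated and 1363, 1411, 917, 799.8 and 832 RPKM in wt untreated, a log2 fold change of 0.26 ± 0.05 (SE, adjusted p = 0.0118 with the block and 0.655 without). These 3 genes were called in each of the 24 fits with the block that left out 1 library and in each of the 7 other fits with the block.

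The other 5 rested on fewer settings. *col-94* averaged 130.9 ± 35.7 RPKM in *abl-1* KO untreated and 102 ± 29.3 RPKM in wt untreated (SD, n = 5 each; adjusted p = 0.0179 with the block, limma), and the call was lost without wt untreated replicate 3 or 4 or *abl-1* KO untreated replicate 2. *col-99*, a transmembrane collagen made in neurons and no part of the cuticle proper, averaged 1.75 ± 0.37 RPKM in *abl-1* KO untreated and 1.25 ± 0.32 RPKM in wt untreated (adjusted p = 0.0330), and was called in 2 of the 10 fits that left out a library of these groups. Neither gene separated the groups fully.

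Among those that fell, *col-95* had 238, 241, 424, 466 and 385 RPKM in *abl-1* KO untreated and 394, 327, 448, 559 and 604 RPKM in wt untreated, a log2 fold change of -0.43 ± 0.09 (SE, limma adjusted p = 0.0163 with the block and 0.466 without). The call was lost without *abl-1* KO untreated replicate 1 or 2. *col-43* averaged 4.94 ± 2.11 RPKM in *abl-1* KO untreated and 7.33 ± 2.24 RPKM in wt untreated (SD, n = 5 each), and *col-135* averaged 42.4 ± 7.25 RPKM in *abl-1* KO untreated and 50.5 ± 10.7 RPKM in wt untreated (limma adjusted p = 0.0317 and 0.0414 with the block). *col-43* was called in 3 and *col-135* in 1 of the 10 fits that left out a library of these groups.

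The same 8 genes kept their side in the other comparison of the strains, which shares no library with this one. Its libraries helped to set the block and the variance in the fit that called the 8 genes, so this is no independent evidence. In the fit of *abl-1* KO untreated against wt untreated with the block and only the libraries compared, 14 of the 104 members were called (13.5%, against 2% of all genes). *col-99* and *col-135* were not among them. Which members were called thus depended on the libraries in the fit. In *abl-1* KO quercetin against wt quercetin, all 5 genes called higher above were higher in each of the 5 same-numbered pairs and all 3 called lower were lower in each, as were 4 and 0 of the other 96 tested members, and 7.60% and 4.85% of all tested genes. The correlations between same-numbered libraries over the tested genes were 0.34, 0.50, -0.35, -0.61 and 0.08 there (replicates 1 to 5). The numbers were not taken as pairs in this comparison, since that required more than 0.1 in every pair. *col-179* had 482, 470.1, 363, 320.2 and 334 RPKM in *abl-1* KO quercetin and 376, 339.8, 232, 232 and 209 RPKM in wt quercetin, a log2 fold change of 0.52 ± 0.19 (SE). *col-19* averaged 871 ± 146.2 RPKM in *abl-1* KO quercetin and 694 ± 164 RPKM in wt quercetin (SD, n = 5 each; 0.34 ± 0.17, log2 ± SE), and *col-95* averaged 357 ± 97.3 RPKM in *abl-1* KO quercetin and 486 ± 81.3 RPKM in wt quercetin (-0.47 ± 0.21). None of the 104 was called in this comparison without a block (limma, background 62 of 12771 genes, 0.485%). An unadjusted p of at most 0.05 was found for 4 of the 104, against 1045 of the 12771 tested genes. The median of the 104 was 0.14, -0.11 without *abl-1* KO quercetin replicate 3 and 0.38 without wt quercetin replicate 4, and *col-95* and *col-43* (-0.62 ± 0.30) had the lowest and *col-161* (0.76 ± 1.02) and *col-162* (0.75 ± 0.78) the highest fold changes. Without *abl-1* KO quercetin replicate 3 *col-161* was at 0.01 and *col-162* at 0.13.

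The 8 genes that differed by strain also followed the replicate number. In wt lutein, which is in neither contrast of the strains but helps to set the block and the variance in the fit (the call of *col-135* was lost without its replicate 1), the libraries numbered 1 and 2 exceeded those numbered 3 and 4 in mean log2 value by 0.36 for *col-179*, 0.38 for *col-19*, 0.51 for *col-124*, 0.59 for *col-94* and 0.36 for *col-99*, and the difference was -0.29 for *col-95*, -0.30 for *col-43* and -0.32 for *col-135*. The sign was thus the one each gene had between the strains. *col-94*, *col-179* and *col-124* were the members most like *col-19* over the 24 libraries (Pearson's r of log2(RPKM + 0.5) 0.98 for each). Other gene groups were also compared within the untreated pairs. Sperm genes were higher in *abl-1* KO in 4 of 5 pairs, yolk genes and neuron markers in 3 each, and oocyte and eggshell markers in 2. The 11 molting markers were higher in *abl-1* KO in 5 of 5 pairs, with sums of 26.1, 21.6, 21.7, 19.7 and 20.9 RPKM in *abl-1* KO untreated and 18.4, 19.6, 17.9, 15.6 and 20.4 RPKM in wt untreated. Muscle markers were higher in 5 of 5 pairs as well: *myo-3*, *unc-54* and *unc-15* summed to 436, 414, 347, 311 and 353 RPKM in *abl-1* KO untreated and 364, 412, 334, 296 and 331 RPKM in wt untreated, and 5 epidermal markers, higher in 4 of 5 pairs, summed to 71.0, 77.3, 74.4, 75.2 and 72.0 RPKM in *abl-1* KO untreated and 71.9, 71.1, 69.3, 65.8 and 67.3 RPKM in wt untreated. In *abl-1* KO quercetin against wt quercetin, where the numbers were not taken as pairs, the molting, muscle and epidermal lists were each higher in 3 of 5 same-numbered pairs. Sperm genes were higher there in 4 of 5 pairs, neuron markers in 3, and yolk genes and oocyte and eggshell markers in 2 each. The part of the lists in the strain difference was not tested.

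By ranges alone, 1 of the 104 members separated *abl-1* KO untreated from wt untreated without overlap (0.962%), against 2.09% of all tested genes. This was *col-110*, named here after its values were seen, with 2.38, 1.64, 3.10, 2.18 and 2.43 RPKM in *abl-1* KO untreated and 1.12, 1.38, 1.16, 1.55 and 1.22 RPKM in wt untreated. Its log2 fold change was 0.66 ± 0.20 (SE, limma adjusted p = 0.216, and 0.0651 with the block). Of the members not called, *col-133* (0.90 ± 1.06) and *col-13* (0.84 ± 0.77, log2 ± SE) had the largest fold changes, and without *abl-1* KO untreated replicate 2 they were 0.19 and 0.36.

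The other cuticle collagens of known role fell between these patterns. *col-7*, like *col-19* an adult collagen, lies beside *col-62* on chromosome I (7401132 to 7402761 and 7403291 to 7404374). Both were scarce, with medians of 0.549 and 2.15 RPKM, and both peaked in *abl-1* KO quercetin replicate 3 (7.56 and 9.39 RPKM). Mean levels of adult collagens thus ran from 772 RPKM for *col-19* to 1.54 RPKM for *col-7*. Of the DBL-1 targets, *col-142* had 34.2 to 134 RPKM and its neighbour *col-141* 0.104 to 1.09 RPKM, while *col-41* had 3.64 RPKM in wt quercetin replicate 4, and a median of 0.0390 RPKM. Of the 7 members of the study's list of genes common to quercetin and *abl-1* loss, which the study chose on these libraries, *col-13*, *col-91*, *col-120* and *col-146* were highest in *abl-1* KO quercetin replicate 3, *col-77* and *col-156* in wt quercetin replicate 4 and *col-92* in *abl-1* KO untreated replicate 2. None of these 7, whose peaks are no independent evidence, was called in any comparison, with or without the block. The study's list came from a different test, in CLC. Here limma called 0 of 12771 genes in wt quercetin against wt untreated, so the lack of calls there is not particular to these 7.

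Of the machinery that makes collagen, a single gene was called, and only with the block. Of 24 enzymes and secretion factors, 22 were measured and 21 tested, and none was called in any of the 7 comparisons without a block. With the block, *pdi-2*, the protein disulfide isomerase subunit of prolyl 4-hydroxylase, was called in *abl-1* KO untreated (310 ± 17.2 RPKM) against wt untreated (282 ± 13.2 RPKM; SD, n = 5 each; limma adjusted p = 0.0307). This was 1 of 21 tested (4.76%), near the 3.65% called among all genes. The hydroxylase subunit gene *dpy-18* had 11.4 to 14.8 RPKM and the cyclophilin gene *cyn-5* 362 to 431 RPKM over all libraries. Of 23 regulators of molting and of collagen genes, all tested, none was called in any comparison, with or without the block; *lin-29* had 1.15 to 1.82 RPKM and *nhr-23* 23.4 to 27.0 RPKM.

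Some collagens named for body shape peaked in the same libraries as scarce *col* genes. Of 21 *bli*, *dpy*, *lon*, *rol* and *sqt* genes, 16 were tested and none was called in any comparison, with or without the block. *dpy-5*, a collagen needed for normal body length, had 22.7 RPKM in *abl-1* KO quercetin replicate 3 and 31.1 RPKM in wt quercetin replicate 4, against a median of 0.764 RPKM. *sqt-3* had its highest value, 26.7 RPKM, in wt quercetin replicate 5, the library in which *col-165* was highest. It was also high in *abl-1* KO quercetin replicate 3 (21.2 RPKM), wt quercetin replicate 4 (19.9 RPKM) and wt untreated replicate 5 (19.3 RPKM), against a median of 8.24 RPKM.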

How the data were processed

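Poly(A) RNA of whole-worm pools was sequenced by the authors as stranded 150-base single reads (base calls by bcl2fastq 2.20.0.422), mapped to WBcel235 and summarised per gene in CLC Genomics Workbench. The deposited values are RPKM, normalised by the authors for gene length and mapped reads; how multi-mapping reads and strand were treated is not given in the sources used. Groups follow the labels, which name NV50 where the RNA-seq methods name NV51. The paper's strain list gives NV51 as *abl-1* KO with a transgene for human amyloid-beta in neurons. Its RNA-seq methods also label NV48 as nAD, the paper's name for animals with that transgene. The sources thus differ on the amyloid-beta background as well. The RNA-seq methods call the replicates of each condition different biological ones, and the labels do not name separate cultures. The p-values measure the spread between these libraries.

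From the RPKM, log2(RPKM + 0.5) of the 12771 genes with at least 0.5 RPKM in at least 4 libraries was fitted with limma 3.58.1 (R 4.3.3, variance trend, 24 libraries as 5 groups). The call was an adjusted p (two-sided, Benjamini-Hochberg over all tested genes) no higher than 0.05, with no fold minimum. The script was tested on simulated data. Members and lists were chosen with earlier results of these data known. Members named are the 12 most abundant, those called, the 2 highest and 2 lowest fold changes of each comparison without calls, the role and study lists, the extremes of spread and those most alike; *col-110*, *col-111* and neighbouring pairs were added after their values were seen. Marker lists of neurons, with summed levels of 168 to 198 RPKM, and of oocytes and eggshell, with 4050.1 to 4609 RPKM, were also summed.

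Same-numbered libraries were taken as paired where every pair's deviations from the group means correlated above 0.1. That held for *abl-1* KO untreated against wt untreated (0.14 to 0.58), wt quercetin against wt untreated (0.17 to 0.56), wt lutein against wt untreated (0.16 to 0.60) and wt quercetin against wt lutein (0.28 to 0.38). Alternatives changed the filter, pseudocount, scaling, variance trend, libraries in the fit and the replicate block, and left out each library.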

Additional observations from a re-analysis of the deposited data

Results flagged for a closer look

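Within each group of 4 or 5 libraries, 27 values (the family total and the tested collagens of the role lists, the study list and the strain calls, on the log2 scale) were checked for a highest or lowest library that stood apart by Dixon's criterion. It was met 14 times over the 5 groups, where chance gives about 1 in 20, and several share a library. In *abl-1* KO quercetin, replicate 3 stood above the others in *col-38* (27.4 RPKM), *col-49* (12.8 RPKM), *col-17* (9.14 RPKM) and *col-120* (6.74 RPKM). In *abl-1* KO untreated, replicate 2 did so in *col-49* (2.52 RPKM) and *col-120* (3.16 RPKM). In wt quercetin, replicate 4 did so in *col-38* (26.4 RPKM), *col-49* (13.6 RPKM), *col-63* (11.3 RPKM) and *col-17* (21.1 RPKM), and replicate 2 lay below the others in *col-135* (31.1 RPKM). In wt untreated, *col-63* was high in replicate 4 (0.562 RPKM), *col-17* in replicate 5 (1.45 RPKM) and *col-120* in replicate 2 (0.563 RPKM).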

How the results depend on the processing

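In *abl-1* KO untreated against wt untreated the count of collagens called was 0. It was 1 without wt quercetin replicate 4 and *abl-1* KO untreated replicate 2 (0.342% of all genes called) and, chosen after seeing the data, 1 without these and *abl-1* KO quercetin replicate 3 (0.36%). With the replicate block it was 8 (3.65%). Combinations with the block were chosen after seeing the data. They gave 14 calls with only the libraries compared (13.5% of members, 2% of all genes), 7 with median-of-ratios scaling (3.55%), 8 with a pseudocount of 1 (3.6%), 8 with 0.1 (3.63%), 7 with no variance trend (3.43%), 5 with no filter (3.18% of members, 1.75% of all genes) and 9 with a mean of at least 1 RPKM (4.61%). Leaving out 1 library with the block gave 3 to 11 calls. In *abl-1* KO quercetin against wt quercetin, where the numbers were not taken as pairs, the count of 0 became 1 without wt quercetin replicate 4 and *abl-1* KO untreated replicate 2 (0.493%) and 8 with the block (1.97%). With the block it was 2 with only the libraries compared (0.611%), 7 with scaling (1.95%), 8 with a pseudocount of 1 (1.93%), 8 with 0.1 (1.98%), 7 with no trend (1.78%), 6 with no filter (1.11%) and 8 with a mean of at least 1 RPKM (2.53%). Leaving out 1 library without the block gave 0 to 1. The block changed no other call. Leaving out 1 library turned the sign of *col-165* (-0.80 to 0.40) and *col-74* (-0.68 to 0.37) in wt quercetin against wt untreated, of *col-165* in *abl-1* KO quercetin against *abl-1* KO untreated (-0.72 to 0.029), of *col-158* in wt quercetin against wt lutein (-0.19 to 0.033) and of *col-162* in the interaction (-0.42 to 0.97), where *col-107* was 0.083 without wt quercetin replicate 4 and *abl-1* KO untreated replicate 2. The causes were not tested. Medians over all tested members moved by less than the SD between libraries (0.15 to 0.64), which the outlying libraries themselves widen, so this is no sign of stability. Depth is not in the files, so counting error of scarce collagens is unknown.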
